A study of Homo sapiens with 4 samples.

Results

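The BCL2 family genes described here were 10 regulators of apoptosis: the effectors BAX and BAK1, the BH3-only genes BBC3, PMAIP1, BCL2L11, BID and BAD, and the anti-apoptotic genes BCL2, BCL2L1 and MCL1. They were chosen by gene symbol, through the RefSeq transcript that the scanner files give for each probe. They were measured by 22 probes, 16 of them for the 7 pro-apoptotic genes and 6 for the 3 anti-apoptotic genes, out of 41000 probes on the array. A symbol was found for 27210 of these probes, representing 18203 genes. The samples were 4 cultures of Nalm-6, a human pre-B leukemia cell line: wild type (WT), Arp5 KO, Arp8 KO and a culture labelled Arp8 OE, with 1 array each. Arp5 (gene ACTR5) and Arp8 (gene ACTR8) are actin-related subunits of the INO80 chromatin remodeling complex. Arp5 KO was a single established line in which both alleles had been disrupted with targeting vectors, and Arp8 KO had been made earlier by a similar route. The paper reports slightly slower growth of Arp5 KO cells than of wild type. It also recalls an earlier report that conditional knockout of Arp8 is lethal to cells. Whether the Arp8 KO culture measured here was losing cells is not known. The labels do not say how Arp8 OE was made. The protocol gave heme (called hemin in the methods), an inducer of oxidative stress, at 20 uM for 12 h. The labels conflict on whether the knockouts received it: the titles, the protocol and the design text say so for all cultures, the treatment field of both knockouts says the opposite, and the source field names heme for Arp8 KO cells but its absence for Arp5 KO cells. A difference between a knockout and WT therefore cannot be told apart from a difference in heme treatment. The same holds for a knockout against Arp8 OE and, by the source field, for Arp8 KO against Arp5 KO.

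The family sets whether the outer mitochondrial membrane is breached during apoptosis. When activated, BAX and BAK1 assemble into pores that release cytochrome c. BCL2, BCL2L1 (BCL-X) and MCL1 hold the effectors and the BH3-only proteins in check, whereas BH3-only proteins bind the anti-apoptotic members or activate the effectors directly. In B-lineage cells BCL2L11 (BIM) and BBC3 (PUMA) are known for setting survival. These genes are also controlled through protein turnover and phosphorylation, which an RNA array does not measure.

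The level of a probe is given as log2 of its background-subtracted signal over the 75th percentile of the array. Levels of different probes cannot be compared, so each probe was followed across arrays only. A difference is the level in a culture minus the level in WT. A probe was called at 2-fold or more, which is 1 on the log2 scale. With 1 array per culture no statistical test was possible, and no difference has a replicate check between cultures. Measurement error was judged within the arrays. For probes printed as 10 spots, the SD of a difference over spots was 0.05 (median) in every comparison. Between probes of the same gene the median SD was 0.09 for Arp5 KO cells, 0.15 for Arp8 KO cells and 0.13 for Arp8 OE. The central 95% of all tested probes lay between -0.87 and 0.78 in Arp5 KO cells, between -1.33 and 1.13 in Arp8 KO cells and between -0.91 and 1.1 in Arp8 OE.

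The targeted genes were examined first. ACTR5 signal in Arp5 KO cells was 19.3-fold below WT. The 2 ACTR8 probes were 1.44- and 1.60-fold lower in Arp8 KO cells, short of 2-fold and within the central 95% of all tested probes. Of those tested probes, 13.1% and 9.02% were lower still. In the culture labelled Arp8 OE, the 2 ACTR8 probes differed by only 0.02 and -0.01 from WT. Signal at these ACTR8 probes was thus not raised in that culture, and its label is used below as a name. The positions of the probes relative to the disrupted exons, and whether an introduced construct would hold their sequence, are not known here. Of 12 B-lineage marker genes, 12 were well above background on every array, with a summed linear level between 319.7 and 403.3. Single markers nevertheless differed from WT in every other culture. In Arp8 KO cells, the culture with the highest BBC3 signal at 2 of 3 probes, CD22 was 5.99-fold and VPREB1 2.39-fold lower, and DNTT 3.43-fold higher. In Arp8 OE, DNTT was 2.03-fold higher, the RAG1 probes 2.15- and 1.94-fold higher, and CD22 1.66-fold lower. The same RAG1 probes were 1.72- and 1.97-fold higher in Arp8 KO cells, where CD79A was also 1.81-fold lower. In Arp5 KO cells, CD22 was 1.85-fold lower and DNTT 1.79-fold higher. The part of these B-lineage differences in the results was not tested. None of 4 T cell markers was above background on all arrays, while CD14 of the 5 myeloid markers and HBA1 of the 4 erythroid markers were; the summed levels of these 3 lists stayed between 0.06 and 0.22. Since RNA came from whole cultures, a smaller proportion of cells carrying a transcript and less of it per cell cannot be told apart.

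The upstream windows of BBC3 and PMAIP1 are shown because these 2 BH3-only genes had the largest gene means above and below WT. They are the 250 bases before the RefSeq start (assembly GRCh38.p14), written 5′ to 3′ along the gene. BBC3 lies on the minus strand (chr19:47232668-47232917) and PMAIP1 on the plus strand (chr18:59899746-59899995). Capitals mark a match to CACGTG (an E-box, which reads the same on both strands) in BBC3 and to TGACG (the core of a cAMP response element, here on the opposite strand as CGTCA) in PMAIP1.
BBC3: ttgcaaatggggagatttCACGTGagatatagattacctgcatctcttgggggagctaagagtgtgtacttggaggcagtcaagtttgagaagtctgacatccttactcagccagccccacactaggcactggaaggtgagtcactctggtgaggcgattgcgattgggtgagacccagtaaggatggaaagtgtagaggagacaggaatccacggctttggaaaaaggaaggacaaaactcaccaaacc
PMAIP1: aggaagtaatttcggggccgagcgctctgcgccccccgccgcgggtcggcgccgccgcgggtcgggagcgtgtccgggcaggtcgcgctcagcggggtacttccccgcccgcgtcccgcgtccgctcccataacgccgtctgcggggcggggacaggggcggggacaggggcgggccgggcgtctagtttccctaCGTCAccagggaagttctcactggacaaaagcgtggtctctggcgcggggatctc
CACGTG was found in 6.34% of the 35116 windows of this length in the table, and among the members in BBC3, BAX and BID. TGACG was found in 21.2% of all windows, and among the members in PMAIP1, BAD, BAX, BCL2 and BCL2L1. The antioxidant response element core TGACNNNGC was found in 10.9% of windows, and among the members in BAD and BAX. Of the 15 windows of the members, 4 held CACGTG, 6 held TGACG and 3 held the antioxidant core. Overlapping windows of BID and of BAD were counted separately. CACGTG and TGACG were each shared by members with opposite differences in Arp8 KO cells. Whether a motif has a part in any difference was not tested.

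Of the 22 member probes, 20 were well above background on all 4 arrays. In Arp5 KO, none of the 21 tested member probes reached 2-fold in either direction, where the background over 24285 tested probes was 1.69% higher and 2.01% lower. In Arp8 KO, 2 of 21 member probes were higher, both for BBC3, and 1 was lower, for BCL2L11. The background there was 3.37% higher and 4.35% lower over 24578 probes. In Arp8 OE, 1 of 22 was higher, for BBC3, and 1 was lower, for BAX, against 2.96% higher and 2.15% lower over 24177 probes. BBC3 was thus the only member with a probe called higher, in Arp8 KO cells and in Arp8 OE.

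**Figure D1:**
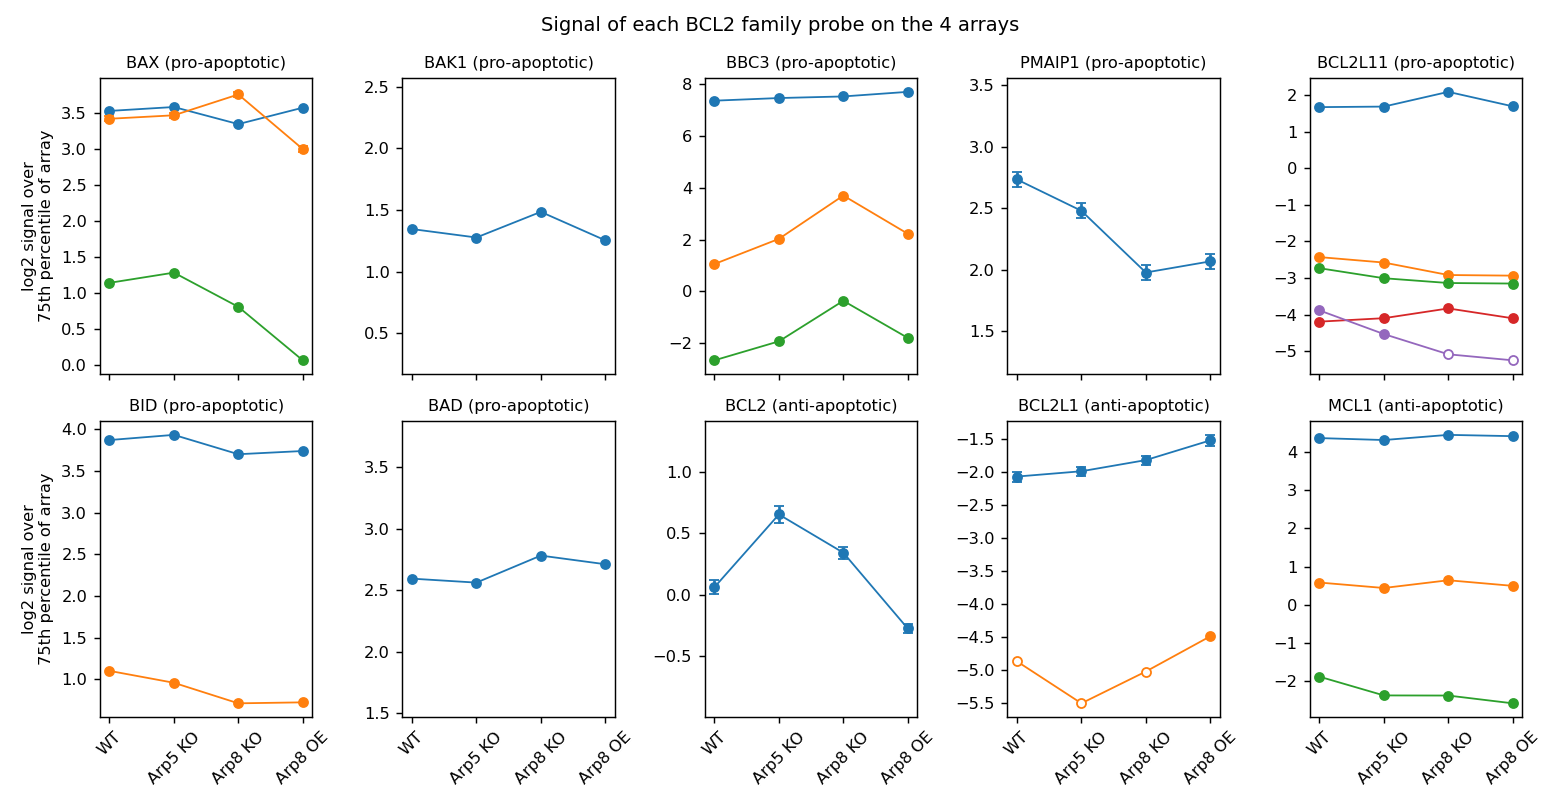
Level of every probe of the 10 members on the 4 arrays (y axis, log2 signal over the 75th percentile of the array; each colour is 1 probe, and error bars are the SD over spots for probes printed 10 times). Open points are not well above background. In BBC3, 2 of 3 probes peak on the Arp8 KO array, and the single PMAIP1 probe is highest on the WT array.

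BBC3 encodes PUMA, a BH3-only protein that binds all the anti-apoptotic members. Its probe A_23_P382775 had a level of 1.06 in WT, 2.03 in Arp5 KO cells, 3.70 in Arp8 KO cells and 2.23 in Arp8 OE. WT was the lowest and Arp8 KO the highest of the 4 arrays. Relative to WT, the signal was 1.96-fold higher in Arp5 KO cells, 6.24-fold higher in Arp8 KO cells and 2.25-fold higher in Arp8 OE. In Arp8 KO, only 47 of 24578 tested probes had a larger increase. A second BBC3 probe, A_24_P305312, gave the same order with levels of -2.66, -1.93, -0.36 and -1.79. Its signal was 1.66-, 4.92- and 1.82-fold higher in Arp5 KO cells, Arp8 KO cells and Arp8 OE. The normexp background correction reduced these differences from 0.73, 2.30 and 0.87 to 0.42, 1.73 and 0.56 on the log2 scale, with Arp8 KO still past 2-fold. Arp8 KO also exceeded Arp5 KO by 1.67 and 1.56 and Arp8 OE by 1.47 and 1.43 at these probes (log2 differences). Heme treatment may differ in these pairs too. Arp5 KO and Arp8 OE, neighbours in this order, differed by -0.20 and -0.13, close to the spread between probes of a gene. The spot of A_24_P305312 had 1 adjacent spot that was bright on the Arp8 KO array alone (over 2-fold above the same spot on each other array), and the part of that spot in the value was not tested. A_23_P382775 had no bright neighbour.

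The third BBC3 probe did not show this pattern. A_23_P90189, the brightest of the 3, had levels of 7.36 in WT, 7.46 in Arp5 KO cells, 7.53 in Arp8 KO cells and 7.70 in Arp8 OE. Its differences from WT were 0.10, 0.16 and 0.34. All 3 probes are assigned to the same BBC3 transcript in the files, and none was saturated. Where in that transcript each probe lies is not known here. The mean over the 3 probes was 0.60 in Arp5 KO cells, 1.70 in Arp8 KO cells and 0.79 in Arp8 OE, with SDs between probes of 0.45, 1.34 and 0.42. The BBC3 difference in Arp8 KO cells therefore rests on 2 of 3 probes.

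PMAIP1 encodes NOXA, a BH3-only protein that binds MCL1 in preference. Its single probe, printed 10 times, had levels of 2.73 in WT, 2.48 in Arp5 KO cells, 1.98 in Arp8 KO cells and 2.07 in Arp8 OE, with spot SDs of about 0.06 on each array. WT was the highest, and the spots of no other array overlapped those of WT. Such separation was found for 30.4% to 60.4% of all tested probes printed 10 times, depending on the culture. The spots of Arp8 KO and Arp8 OE overlapped each other. PMAIP1 was 1.19-fold lower in Arp5 KO cells, 1.69-fold lower in Arp8 KO cells and 1.59-fold lower in Arp8 OE, below the 2-fold threshold in each. Its direction was opposite to that of BBC3 in all 3 comparisons.

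BCL2L11 encodes BIM, a BH3-only activator with several splice forms, and was measured by 5 probes. The brightest, A_24_P122921, had levels of 1.67 in WT, 1.69 in Arp5 KO cells, 2.09 in Arp8 KO cells and 1.69 in Arp8 OE. Arp8 KO was 1.33-fold higher and the other arrays were nearly equal. A_23_P309996 was also higher in Arp8 KO cells, by 0.36, beside a spot that was bright on that array. In contrast, A_23_P425954 differed by -0.15, -0.49 and -0.51 in Arp5 KO cells, Arp8 KO cells and Arp8 OE, and A_23_P309991 by -0.27, -0.41 and -0.42. A_23_P154426 was dim, at -3.88 in WT and -4.53 in Arp5 KO cells, and was not well above background in Arp8 KO cells and Arp8 OE. It was 2.30-fold lower in Arp8 KO cells, a plain ratio from a dim signal and not a minimum. In Arp8 OE it was at least 1.90-fold lower. The decrease in Arp8 KO cells was under 2-fold (-0.37) when background was corrected by the normexp model. The normexp model also reduced A_23_P425954 to -0.245 and A_23_P309991 to -0.12 in Arp8 KO cells, the latter within the spread between probes of a gene. Before that correction, 3 probes of BCL2L11 were lower and 2 were higher in Arp8 KO cells, with an SD of 0.67 between probes around a mean of -0.26.

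BID links caspase-8 to mitochondria, and BAD is a BH3-only protein inactivated by phosphorylation. The brighter BID probe, A_24_P187948, had levels of 3.87 in WT, 3.93 in Arp5 KO cells, 3.70 in Arp8 KO cells and 3.74 in Arp8 OE. The other, A_23_P154929, had 1.1, 0.96, 0.71 and 0.72. Both were lower in Arp8 KO cells (-0.17 and -0.39) and in Arp8 OE (-0.13 and -0.38), within the central 95% of all probes. The single BAD probe differed by -0.03, 0.19 and 0.12 in Arp5 KO cells, Arp8 KO cells and Arp8 OE.

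Of the effectors, BAX had 1 called probe and BAK1 none. BAK1, constitutively inserted in the mitochondrial outer membrane, had levels of 1.35 in WT, 1.28 in Arp5 KO cells, 1.48 in Arp8 KO cells and 1.25 in Arp8 OE, all within 0.14 of WT. BAX, which translocates from the cytosol upon activation, was measured by 3 probes. The probe printed 10 times, A_23_P208706, had levels of 3.42 in WT, 3.47 in Arp5 KO cells, 3.76 in Arp8 KO cells and 3.0 in Arp8 OE. The spots of Arp5 KO overlapped those of WT, all spots of Arp8 KO were above them and all spots of Arp8 OE were below them. These differences were 0.34 in Arp8 KO cells and -0.42 in Arp8 OE.

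A_23_P346311, assigned to the same BAX transcript, had levels of 1.14 in WT, 1.28 in Arp5 KO cells, 0.81 in Arp8 KO cells and 0.06 in Arp8 OE. It was 2.11-fold lower in Arp8 OE, and under 2-fold (-0.97) with the normexp background correction. In Arp8 KO it differed by -0.33, opposite in sign to the probe printed 10 times. A_23_P346309, assigned to another BAX transcript, stayed within 0.18 of WT in all 3 cultures. Accordingly, 2 of 3 BAX probes were lower in Arp8 OE, and the probes disagreed in sign in Arp8 KO cells.

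**Figure D2:**
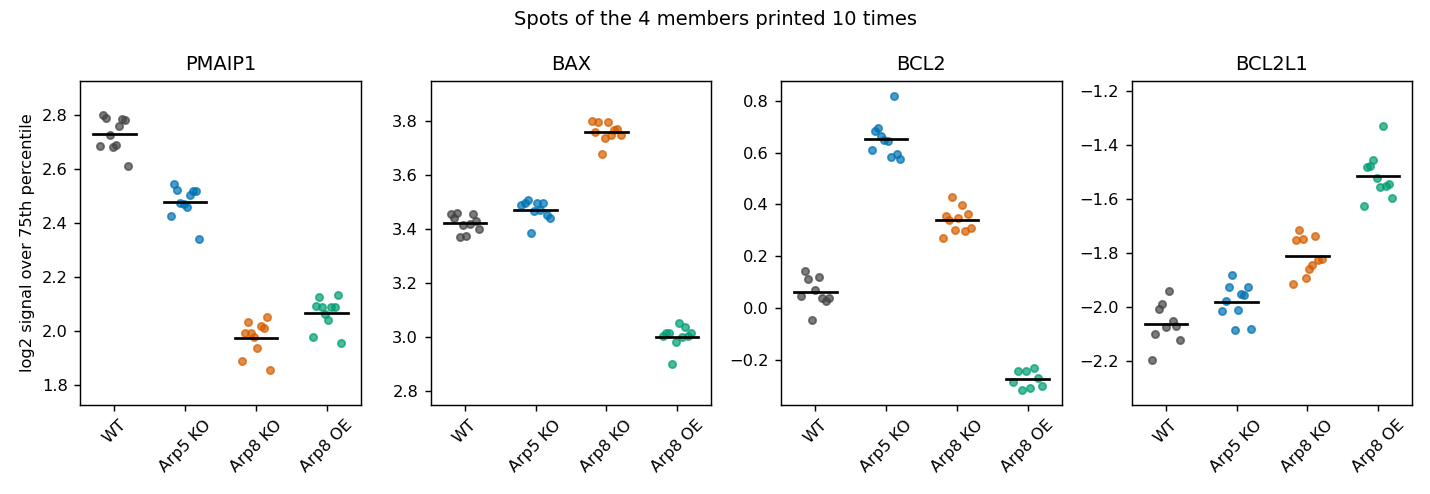
Individual spots of the 4 members printed 10 times (y axis, log2 signal over the 75th percentile of the array; points are usable spots on 1 array, bars their mean). The spots show printing and scanning error only, not the spread between cultures. BCL2 spots of the 4 arrays lie in 4 separate ranges, and PMAIP1 spots of WT lie above all others. By comparison, 30.4% to 60.4% of all tested probes printed 10 times were separated from WT.

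BCL2 encodes the anti-apoptotic protein for which the family is named. Its single probe, A_23_P352266, was printed 10 times and had levels of 0.06 in WT, 0.65 in Arp5 KO cells, 0.34 in Arp8 KO cells and -0.27 in Arp8 OE. The order was Arp5 KO, Arp8 KO, WT, Arp8 OE, and the spots of no 2 arrays overlapped. Separation from WT was common among all tested probes printed 10 times, at 30.4%, 60.4% and 50.3% in the 3 comparisons. The share of probes separated between all arrays was not counted. BCL2 was 1.51-fold higher in Arp5 KO cells, 1.21-fold higher in Arp8 KO cells and 1.26-fold lower in Arp8 OE. The SDs of these differences over usable spots were 0.09, 0.05 and 0.07.

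BCL2L1 encodes BCL-XL and, by splicing, the shorter pro-apoptotic BCL-XS. Its probe printed 10 times, A_23_P210886, had levels of -2.06 in WT, -1.98 in Arp5 KO cells, -1.81 in Arp8 KO cells and -1.51 in Arp8 OE. The spots of Arp5 KO overlapped those of WT, those of Arp8 KO did not, and those of Arp8 OE were above all others. The differences were 0.08, 0.25 and 0.55. A_24_P100130, assigned to another BCL2L1 transcript, was well above background only in Arp8 OE. There it was 1.30-fold above a dim WT signal, which is a plain ratio and not a minimum. BCL2 and BCL2L1 thus lay on opposite sides of WT in Arp8 OE, and on the same side in Arp8 KO cells.

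MCL1 encodes a short-lived anti-apoptotic protein. Its brightest probe, A_24_P336754, had levels of 4.37 in WT, 4.32 in Arp5 KO cells, 4.46 in Arp8 KO cells and 4.42 in Arp8 OE. A_24_P336759 differed by -0.14, 0.06 and -0.09 in Arp5 KO cells, Arp8 KO cells and Arp8 OE. The dimmest probe, A_24_P319635, was lower in all 3 cultures, at -0.49, -0.50 and -0.70. The 3 MCL1 probes are assigned to 1 transcript and did not share this decrease.

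Among the 4 members printed 10 times, the spots of 2 did not overlap WT in Arp5 KO cells (PMAIP1 and BCL2), and those of 4 did not in Arp8 KO cells and in Arp8 OE. Of all probes printed 10 times and tested, 30.4% in Arp5 KO cells, 60.4% in Arp8 KO cells and 50.3% in Arp8 OE had no overlap. Separation of the spots was therefore common on these arrays, and is not particular to the members. In the layout of the arrays, 3 or 4 of the 10 spots of each of these members lay beside such a bright spot, whose part in the values was not tested.

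**Figure D3:**
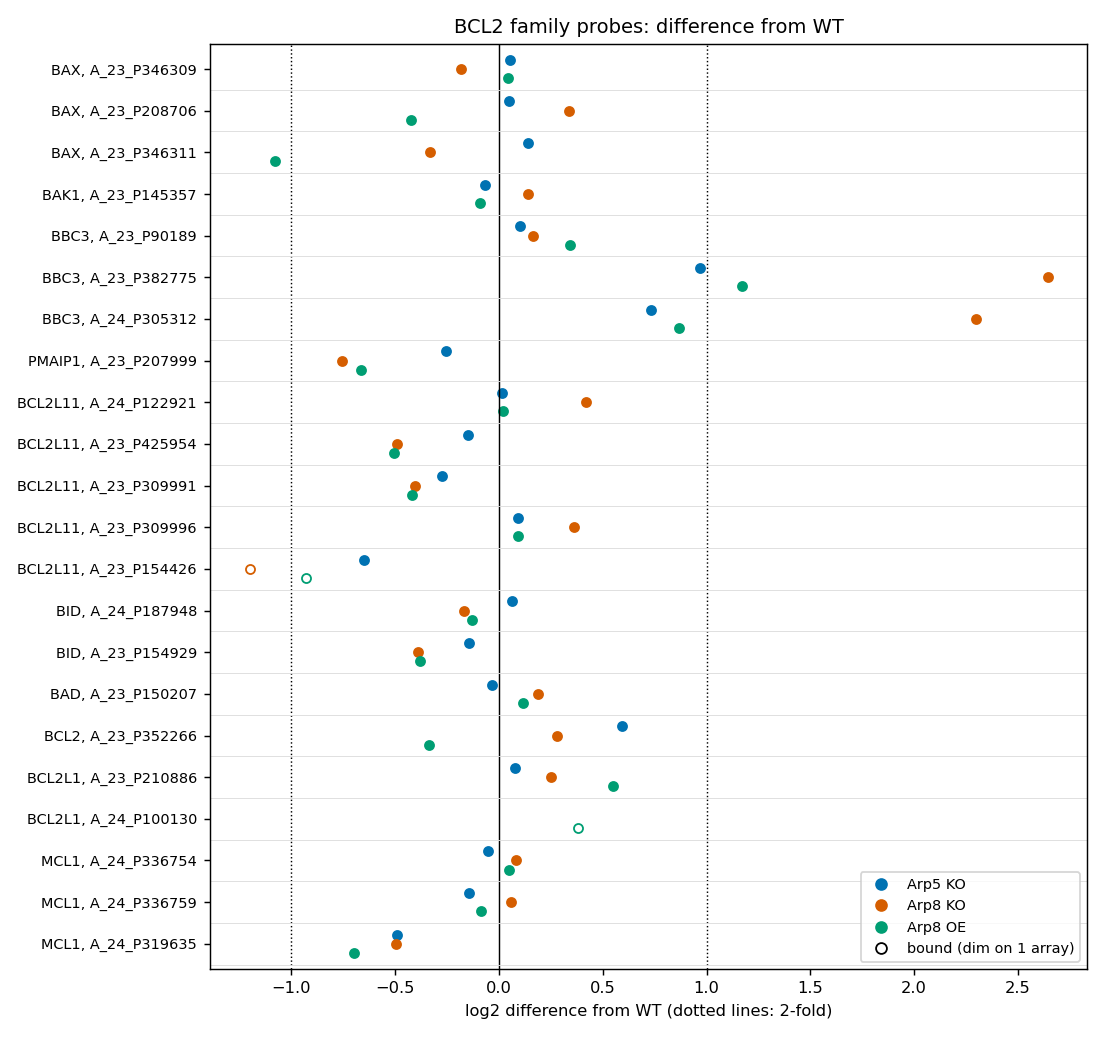
Difference from WT of every tested member probe (x axis, log2; rows are probes, colours are cultures, dotted lines mark 2-fold, and open points are bounds because 1 array was not above background). Only BBC3 probes lie to the right of the 2-fold line. In Arp8 KO, 2 BBC3 probes stand at 2.30 and 2.64 and the third at 0.16.

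Pro- and anti-apoptotic members were then set against each other, using the mean over probes of each gene. In Arp5 KO the median over the 7 pro-apoptotic genes was -0.04 and that over the 3 anti-apoptotic genes 0.08, a gap of -0.12. In Arp8 KO the medians were -0.06 and 0.25, a gap of -0.31. In Arp8 OE both medians were -0.25, a gap of -0.01. With 3 genes, the anti-apoptotic median is the value of 1 gene, BCL2L1 in both knockouts and MCL1 in Arp8 OE. The MCL1 mean there rests on its dimmest probe (-0.70, beside 0.05 and -0.09). The median over all tested probes was 0.00 in Arp5 KO cells and Arp8 OE and 0.03 in Arp8 KO cells. Pro-apoptotic genes above WT numbered 2 in Arp5 KO cells (BBC3 and BAX), 3 in Arp8 KO cells (BBC3, BAD and BAK1) and 2 in Arp8 OE (BBC3 and BAD). Anti-apoptotic genes above WT numbered 2 in Arp5 KO cells and in Arp8 KO cells (BCL2 and BCL2L1 in each) and 1 in Arp8 OE (BCL2L1). The 2 groups overlapped in every comparison, and BBC3 had the highest mean of all 10 genes in Arp8 KO cells and in Arp8 OE. That rank rests on 2 of its 3 probes. The brightest differed by 0.16 in Arp8 KO cells, below BCL2 (0.28) and BCL2L1 (0.25). In Arp8 OE it differed by 0.34, below the BCL2L1 mean of 0.46. In Arp5 KO cells BBC3 (0.60, SD 0.45 between probes) and BCL2 (0.59) could not be ordered. The gap changed sign in Arp5 KO cells, to 0.08, when probes in place of genes were the unit, and in Arp8 KO cells it narrowed to -0.10. It also turned positive in Arp5 KO cells with no filter on dim probes (0.19) and with Arp8 OE as the reference (0.14), and in Arp8 KO cells with Arp8 OE as the reference (0.05). Arp8 OE as the reference is another comparison, not another processing. With WT as the reference, the gap in Arp8 KO cells stayed negative, between -0.35 and -0.10. Its smallest size was below the median SD of 0.15 between probes of a gene. In Arp5 KO cells the gap took both signs with WT as the reference. All 3 comparisons share the WT array.

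**Figure D4:**
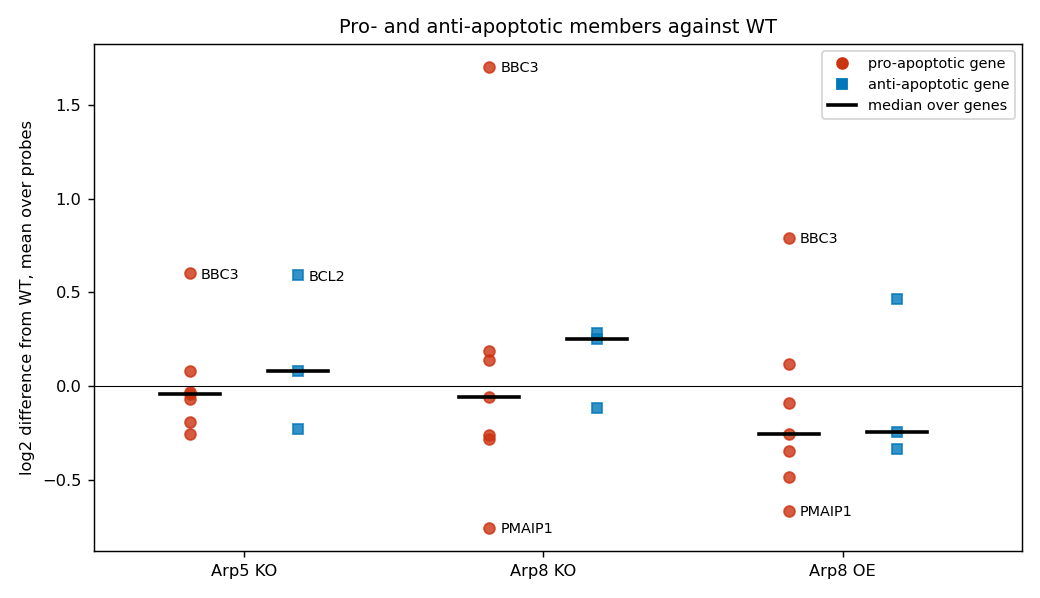
Mean difference from WT over the probes of each member (y axis, log2) for pro-apoptotic genes (circles) and anti-apoptotic genes (squares); bars are medians over genes. The medians lie within 0.31 of each other in each culture, while BBC3 lies at 0.60, 1.70 and 0.79.

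Other members of the wider BCL2 family were measured for 10 of 14 listed genes in Arp5 KO cells and in Arp8 KO cells and for 9 in Arp8 OE. Their medians over genes were -0.03, 0.03 and 0.12. No probe of 13 reached 2-fold in Arp5 KO cells. Of all tested probes there, 1.69% were higher and 2.01% lower, so this is near the background. In Arp8 KO, 1 of 13 probes was lower, for BCL2L13, a receptor for mitochondrial autophagy, at -1.21, where 4.35% of all tested probes were lower. The other BCL2L13 probes differed by -0.24 and -0.81. In Arp8 OE, 2 of 12 probes were higher, where 2.96% of all tested probes were. BNIP3, a hypoxia-induced mitochondrial protein, had levels of 2.39 in WT, 2.26 in Arp5 KO cells, 2.51 in Arp8 KO cells and 4.23 in Arp8 OE. Only the Arp8 OE array stood apart, by 1.84. BMF, a BH3-only protein, had levels of -1.83, -1.98, -1.29 and -0.82 and was higher by 1.01 in Arp8 OE.

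The components acting downstream of the mitochondria, among them APAF1, cytochrome c (CYCS) and the caspases CASP9 and CASP6, were measured for 13 of 14 listed genes. None of their 19 probes reached 2-fold in any comparison. Over all tested probes, between 1.69% and 4.35% were called in each direction, so a count of 0 among 19 is near the background. The medians over genes were -0.002 in Arp5 KO cells, -0.01 in Arp8 KO cells and -0.06 in Arp8 OE, and the gene means ran from -0.74 (CASP6) to 0.88 (ENDOG, a mitochondrial nuclease) in Arp8 KO cells.

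Of 13 listed genes that regulate the members or their proteins, 12 were tested in Arp5 KO cells and 13 in Arp8 KO cells and Arp8 OE. MDM2, a ubiquitin ligase, was higher in Arp8 KO cells at 2 of 4 probes. A_24_P925664 had levels of -0.03 in WT, 0.30 in Arp5 KO cells, 1.33 in Arp8 KO cells and 0.45 in Arp8 OE, and A_23_P309545 had -1.43, -1.26, -0.28 and -0.93. Their differences in Arp8 KO cells were 1.36 and 1.16, and those of the other MDM2 probes 0.69 and 0.36. Arp8 KO was the highest of the 4 arrays at 3 MDM2 probes. At the fourth, A_23_P502750, printed 10 times, the spots of Arp8 KO (mean -3.49) and Arp8 OE (mean -3.51) overlapped. In Arp8 KO cells, 3 of 24 regulator probes were higher (MDM2 and FBXW7) and 1 was lower (DDIT3), beside 3.37% and 4.35% of all tested probes. FBXW7, a ubiquitin ligase subunit that targets MCL1, was higher in Arp8 KO cells at 1 of 2 probes (1.17, beside spots bright on the Arp8 KO and Arp8 OE arrays, and 0.47 at the other). DDIT3 (CHOP), a stress-induced transcription factor, had levels of -0.56 in WT, -1.20 in Arp5 KO cells, -1.60 in Arp8 KO cells and 0.13 in Arp8 OE. It differed by -1.05 in Arp8 KO cells and by 0.68 in Arp8 OE. No regulator reached 2-fold in Arp5 KO cells or in Arp8 OE, which is near the background. Of all tested probes, 1.69% were higher and 2.01% lower in Arp5 KO cells, and 2.96% and 2.15% in Arp8 OE. The list medians were 0.07, 0.03 and 0.10.

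**Figure D5:**
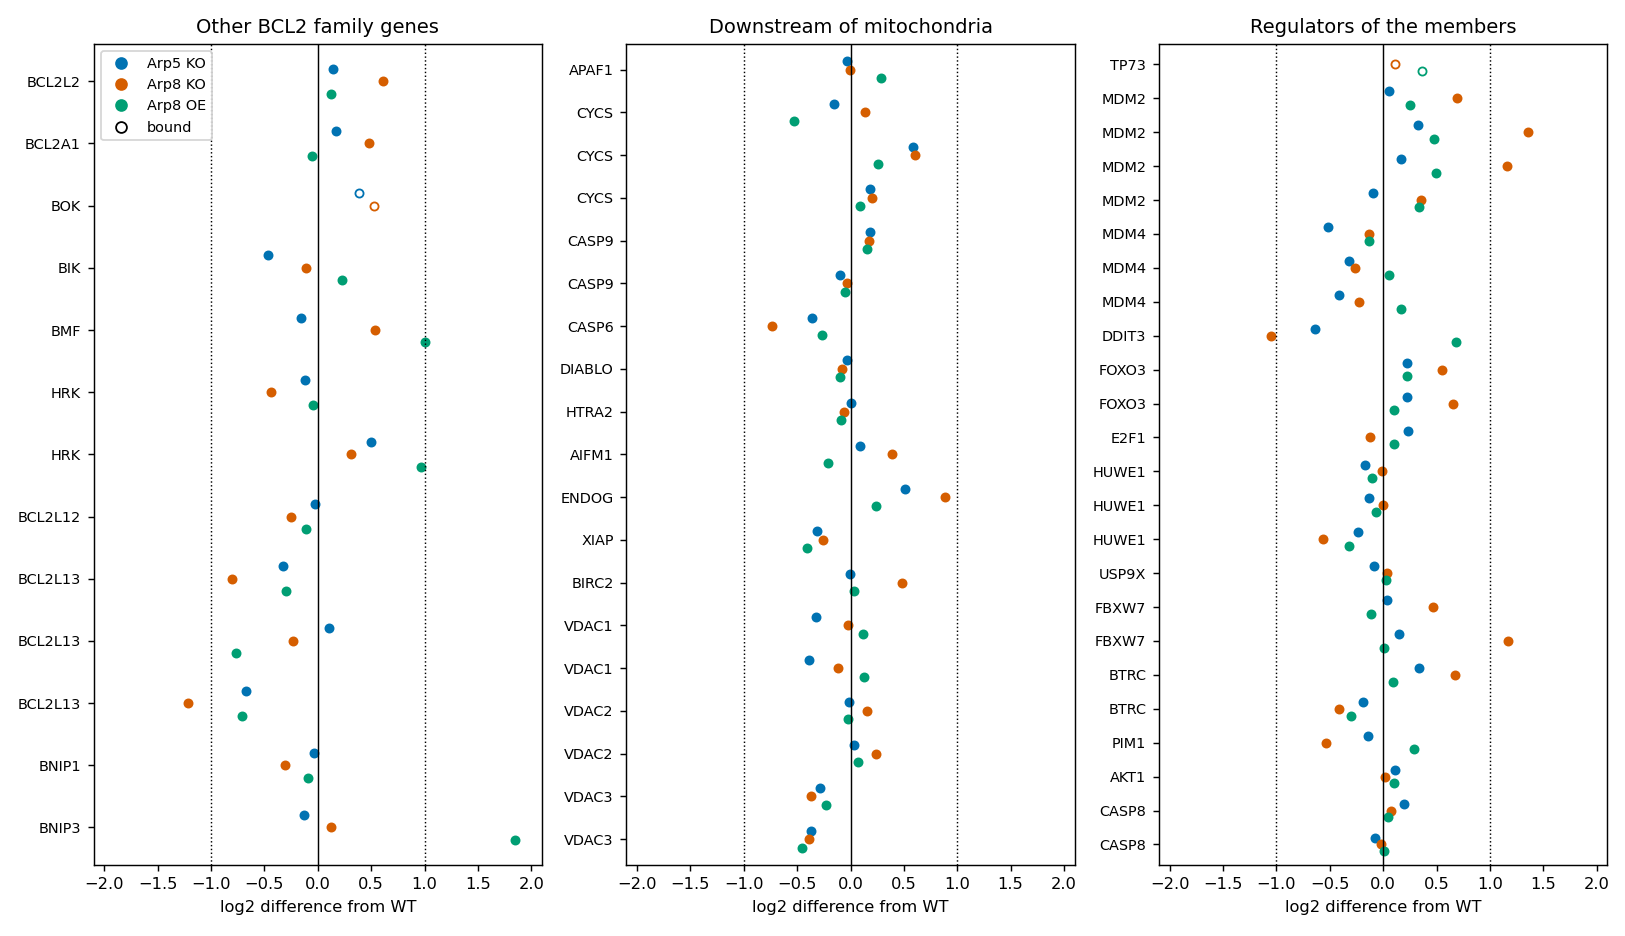
Difference from WT (x axis, log2; dotted lines mark 2-fold) of every tested probe of 3 lists of related genes, with 1 row per probe and colours for cultures; open points are bounds. No downstream gene passes a dotted line, and MDM2 and FBXW7 pass it to the right in Arp8 KO cells.

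Genes with the most similar differences were sought among 16556 probes well above background on all arrays, by Euclidean distance over the 3 differences from WT. For BCL2 they were S100A16, ANKAR, HEATR3, USP25 and FAM161B, at distances of 0.09 to 0.17, and 25 probes lay within 0.25. Of the 5 genes, all but USP25 lay beside a bright spot. S100A16 had differences of 0.66 in Arp5 KO cells, 0.23 in Arp8 KO cells and -0.37 in Arp8 OE. For the brightest BBC3 probe they were ST3GAL3, H3C15, ZNF440, HS2ST1 and ZDHHC17, and 1461 probes lay within 0.25. For BBC3 probe A_23_P382775, added after its values were seen, no probe lay within 0.25. The nearest was ACTA2, smooth muscle actin, at 0.38, with differences of 0.71, 2.71 and 0.91. LGR6, DAPL1, CD70 and PHLDA3 followed at distances of 0.56 to 0.62, DAPL1 and PHLDA3 beside a bright spot. Likeness here is over 3 values that share the WT array.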

How the data were processed

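The data were RNA measurements from 4 one-colour Agilent arrays, 1 for each genotype in the labels. The deposited intensity values are linear and came from Agilent Feature Extraction (version 10.10.1.1 in the headers), with background subtracted by the authors and no normalization across arrays. The same files hold flags, other than intensity, for outlier, saturated and above-background spots, set by that software per the file headers. The authors' deposited series matrix holds the same intensity times 1 factor per array (1.99 to 2.29). All value columns were matched to a sample.

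Outlier spots (69 to 76 per array) were left out, log2 intensity was taken relative to the 75th percentile of each array (647.4 to 739.6), and spots of a probe were averaged. A probe was above background if 50% or more of its spots were (55.8% to 57.4% of probes), and was tested where either array compared met this. A dim probe took the lowest above-background value of its array, or its own if higher, and its difference is called a bound. Where the probe kept its own value, a bound is not a minimum difference. No spot was saturated. Precision is limited by the number of arrays. The slide and scan time were common to all arrays.

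Probes were named through RefSeq accessions (assembly GRCh38.p14, whereas the headers name hg19). The probe sequences and protein sequences were not used here. All probes of the 10 members were named, as were genes of the related lists past 2-fold and the 5 genes nearest to BBC3 and BCL2. The members and lists were chosen with earlier results of these data known. Some listed genes are not reported here and were left out of the list counts. Promoter motifs were searched on both strands. Only the difference, the call and the value given to dim probes were checked on simulated data, with added changes larger than the threshold. The other steps were not simulated. R 4.3.3, limma 3.58.1 and Python 3.11.15 were used. Alternatives were another scaling (median, quantile, cyclic loess), normexp background correction (offset 50), the series matrix, other filters, gene means, a 4-fold threshold, Arp8 OE as reference and leaving out probes beside bright spots.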

Additional observations from a re-analysis of the deposited data

Results flagged for a closer look

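Each of the following probes lay past 2-fold from WT in one culture and on the opposite side of WT in another; with 1 array per culture, the difference between the cultures was not tested. BAX probe A_23_P346311 differed by -1.08 in Arp8 OE and by 0.14 in Arp5 KO, which is -1.22 between the 2 cultures. BMF differed by 1.01 in Arp8 OE and by -0.15 in Arp5 KO, 1.16 apart. BNIP3 differed by 1.84 in Arp8 OE and by -0.13 in Arp5 KO, 1.98 apart. DDIT3 differed by -1.05 in Arp8 KO and by 0.68 in Arp8 OE, which is -1.73 between these cultures. The smaller difference of each probe lay within the central 95% of all tested probes. That range was -0.87 to 0.78 in Arp5 KO and -0.91 to 1.1 in Arp8 OE.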

How the results depend on the processing

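No paired analysis was possible because each group had 1 array. Over all alternatives, 567 of 634 recomputed values were labelled the same and 67 moved. No called difference changed sign. Differences and gaps were judged by the median SD between probes of a gene, and counts by their ratio. Leaving out probes beside bright spots, or below background on either array, could remove a probe but not move its difference. The series matrix, the same intensity times 1 factor per array, could hardly move one. The total includes these settings, so it overstates how far the values were tried. Median scaling, cyclic loess and the series matrix moved none of 64 member differences, quantile normalization moved 2, normexp 13, and Arp8 OE as reference 30 of 41. The effect of the lone WT array on each difference could not be measured otherwise. The causes of the moves were not tested.

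Member probes higher in Arp5 KO numbered 1 by median scaling (BBC3 A_23_P382775, at 1.0 in place of 0.97) and 1 with Arp8 OE as reference. In Arp8 KO, higher probes or genes numbered 1 by gene means and 1 without probes beside bright spots, and lower ones numbered 0 with normexp, with both arrays above background, by gene means, at 4-fold and with Arp8 OE as reference. In Arp8 OE, higher ones numbered 0 by gene means and at 4-fold, and lower ones numbered 0 with normexp, by gene means and at 4-fold and 2 with no filter, where BCL2L11 joined BAX.

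The gap of pro- minus anti-apoptotic genes in Arp5 KO turned to 0.189 with no filter, 0.0829 with probes as the unit and 0.140 with Arp8 OE as reference. In Arp8 KO it was -0.107, -0.0995 and 0.0458 under these 3 settings. Signals near background, such as BCL2L11 A_23_P154426 and BCL2L1 A_24_P100130, have only a bound, which is not a minimum where the probe kept its own dim value.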
